A study of Mus musculus with 60 samples.

Results

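Calf muscle of 5 Dmdmdx mice was set against calf muscle of 5 C57Bl/6 mice at 3 months of age, 10 of the 60 arrays of the series. Dmdmdx is a mouse lineage used as a model of Duchenne muscular dystrophy, and C57Bl/6 served as the normal control. The arrays were chosen by lineage and age alone, with no measured value in the choice. The same 2 lineages at 21 days and 6 months (5 arrays each) were used to show where the 3-month difference was larger or smaller. So was the Largemyd lineage at 3 months (5 arrays), a model of a dystrophy in which dystroglycan is poorly glycosylated. All 60 arrays gave the estimate of spread between animals. The labels call all of these mice male and untreated, and the series' design gives 1 animal per array with no technical replicates. Values are log2 RMA expression values on Affymetrix Mouse Gene 1.0 ST arrays, each gene read by 1 probe set, so a difference of 1 is a 2-fold difference. The labels state no genetic background for Dmdmdx beyond the lineage name, so the mutation and any other difference between the lineages cannot be told apart.

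Dystrophin joins the actin skeleton beneath the muscle fibre membrane to the dystroglycan and sarcoglycan complex and, through it, to laminin outside the cell. The mdx allele is a nonsense mutation that removes full-length dystrophin protein, and fibres without it tear during contraction, die, and are cleared by macrophages and rebuilt by satellite cells, the stem cells of muscle. In mdx limb muscle this degeneration starts around weaning and goes on through adult life in scattered fibres, beside fibres that have already regenerated.

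Defining genes of skeletal muscle fibres were bright in all 10 arrays, with Acta1, skeletal actin, between 13.52 and 13.85 and Ckm, muscle creatine kinase, between 13.31 and 13.77. Markers of other tissues and of sex set some arrays apart. Xist, the RNA of the inactive X chromosome in females, lay between 10.60 and 11.84 in C57Bl/6 replicate 5 and Dmdmdx replicates 4 and 5, compared with 4.99 to 5.28 in the other 7 arrays, although all are labelled male. The mean of 12 marrow and neutrophil genes ranged from 8.16 to 11.28 in C57Bl/6 and from 6.66 to 11.81 in Dmdmdx, highest in C57Bl/6 replicate 3 and Dmdmdx replicates 3 and 5. Dmdmdx replicate 5 also had the highest mean of the 10 B cell genes, 9.82 against 6.32 to 6.92 in the other Dmdmdx arrays, and the lowest mean of the 17 fast fibre genes, 12.09 against 12.89 to 12.92. The counts below were therefore also taken without the arrays marked by high Xist or by lymphoid, marrow, red cell, bone or skin genes, which leaves 5 unmarked arrays, Dmdmdx replicates 1 and 2 and C57Bl/6 replicates 1, 2 and 4. Results given for the 5 unmarked arrays come from a fit that left out the marked arrays of every group in the series. The unmarked arrays of all groups gave its estimate of spread.

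**Figure D1:**
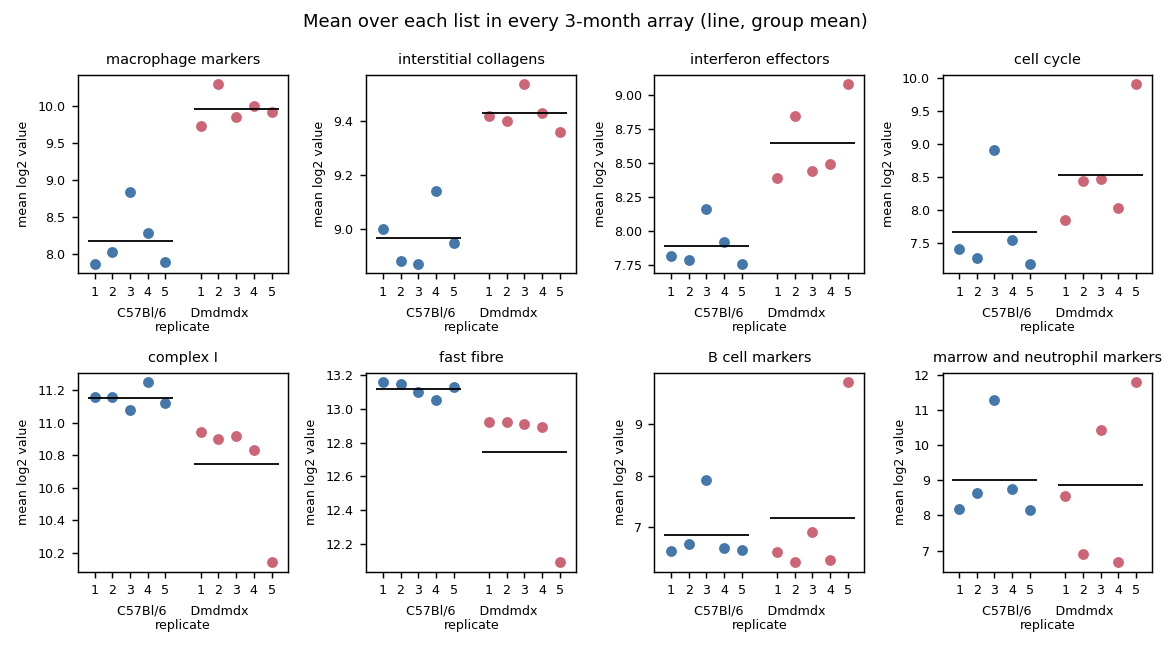
Mean log2 value over each of 8 gene lists (vertical axes, not starting at 0) in every 3-month array, C57Bl/6 in blue and Dmdmdx in red, with the replicate number on the horizontal axis and a line at each group mean. Macrophage markers and interstitial collagens separate the 2 groups with no overlap, whereas B cell and marrow markers are high in C57Bl/6 replicate 3 and Dmdmdx replicate 5.

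Of 19938 genes tested, 2457 rose and 3149 fell in Dmdmdx at an adjusted p under 0.05 (limma moderated test on all 60 arrays, Benjamini-Hochberg), which are 12.3% and 15.8% of all genes. Every count of list members called with all arrays is to be read beside these shares. The rises were the larger changes: of the 531 genes that passed with at least a 2-fold difference, 426 rose and 105 fell. The median difference over all genes was -0.04. In 3046 genes, 15.3%, the 5 Dmdmdx and 5 C57Bl/6 arrays did not overlap. On the 5 unmarked arrays 1556 genes rose and 1593 fell, 7.8% and 7.99%. With Dmdmdx replicate 5 alone left out, 1941 of the 19938 genes rose and 2274 fell. List counts taken in either of these ways are to be read beside the numbers of the same fit. Because the tissue was powdered whole, more or fewer cells of a type and more or less RNA per cell cannot be told apart in any of these differences.

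Dmd, the gene of dystrophin on the X chromosome, measured 10.03, 9.63, 9.81, 9.41 and 9.76 in C57Bl/6 replicates 1 to 5 and 8.56, 8.60, 8.70, 8.65 and 7.41 in Dmdmdx replicates 1 to 5. Every Dmdmdx array lay below every C57Bl/6 array, and replicate 5 lay furthest below. The difference of -1.34 ± 0.18 (SE, n = 5 and 5; adjusted p = 5.4e-08) corresponds to a 2.53-fold lower mRNA level, and it was -1.11 on the 5 unmarked arrays. Since the mdx change is a point mutation, the array reads the level of a transcript that is still made, not the lost protein.

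The largest fall in the dystrophin complex was that of Nos1, neuronal nitric oxide synthase, which docks on dystrophin and the syntrophins at the membrane. Its values were 10.02, 9.97, 9.78, 9.89 and 10.39 in C57Bl/6 and 8.44, 8.53, 8.5, 8.66 and 7.44 in Dmdmdx, with no overlap, a difference of -1.70 ± 0.21 (adjusted p = 1.4e-08). Sgca, alpha-sarcoglycan, measured 11.93, 11.98, 11.72, 12.01 and 11.85 in C57Bl/6 and 11.67, 11.55, 11.53, 11.49 and 9.90 in Dmdmdx. The groups did not overlap, but replicate 5 alone set much of the size, with -0.67 over all arrays (adjusted p = 0.0022) and -0.34 without it (adjusted p = 0.039). Without the high-Xist arrays it was -0.33 and did not pass (adjusted p = 0.067). With the spread taken from the 10 arrays alone, the -0.67 did not pass either (adjusted p = 0.15). The fall of Sspn, sarcospan, of -0.47 passed with all arrays (adjusted p = 0.017) and not without Dmdmdx replicate 5 (-0.24, adjusted p = 0.23).

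Utrn, the gene of utrophin, a close relative of dystrophin that can take its place, measured 9.56, 9.32, 9.38, 9.43 and 9.40 in C57Bl/6 and 9.32, 9.30, 9.44, 9.46 and 9.48 in Dmdmdx. The groups overlapped fully, and the difference was -0.01 ± 0.07 (adjusted p = 0.92). Sntb2, beta-2-syntrophin, a scaffold protein of the complex, was 8.47, 8.56, 8.49, 8.38 and 8.33 in C57Bl/6 and 8.90, 8.93, 8.88, 9.10 and 8.97 in Dmdmdx, a rise of 0.51 ± 0.07 (adjusted p = 2.8e-08) with no overlap. Sgce, epsilon-sarcoglycan, rose by 0.32 ± 0.09 (adjusted p = 0.0056), and was at 0.30 on the 5 unmarked arrays (adjusted p = 0.083). In all, 2 of the 14 measured members rose and 4 fell, beside 12.3% and 15.8% of all genes, and 8 did not pass. The 8 were Utrn, Dag1 (-0.18), Sgcb (-0.28), Sgcd (-0.29), Dtna (-0.27), Dtnb (0.04), Cav3 (-0.14) and Sntb1 (0.41). In Dag1, Sgcb, Sgcd, Dtna, Cav3 and Sntb1, Dmdmdx replicate 5 was the lowest of the 10 arrays.

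**Figure D2:**
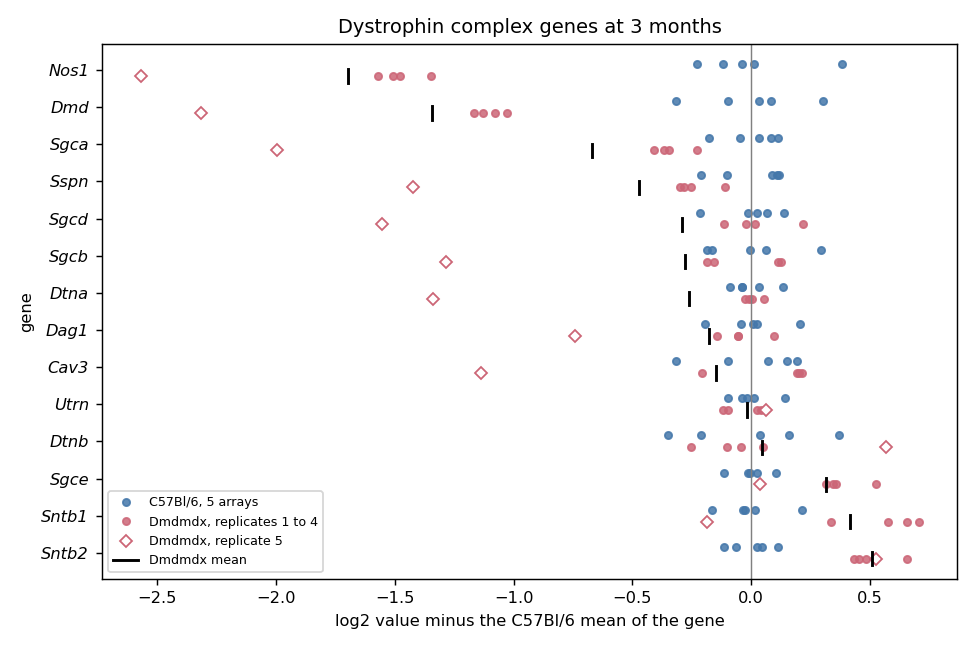
The 14 measured genes of the dystrophin complex (vertical axis), each array as its log2 value minus the gene's C57Bl/6 mean (horizontal axis), with C57Bl/6 in blue, Dmdmdx replicates 1 to 4 in red, Dmdmdx replicate 5 as an open diamond and the Dmdmdx mean as a bar. Nos1, Dmd and Sntb2 are shifted in all 5 Dmdmdx arrays, while the low means of Sgcd, Sgcb and Dtna rest on replicate 5.

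The 15 largest rises with no overlap between the groups were Ccl7, Gpnmb, C3ar1, Ms4a6d, Mmp12, Akr1e1, Myh3, Ms4a7, Ccl8, Ccl2, Ctss, Atp6v0d2, Tlr13, Prg4 and Lgals3, from 3.17 for Ccl7 to 2.66 for Lgals3, 8.98-fold to 6.31-fold. All 15 kept an adjusted p under 0.05 on the 5 unmarked arrays. Ccl7, a chemokine that draws monocytes, measured 6.75, 6.86, 6.68, 7.54 and 6.85 in C57Bl/6 and 10.45, 10.58, 9.33, 10.37 and 9.78 in Dmdmdx (adjusted p = 1e-08). Gpnmb, a membrane glycoprotein of lipid-laden macrophages, measured 8.16, 7.73, 7.92, 8.42 and 7.85 in C57Bl/6 and 11.17, 11.90, 11.28, 11.47 and 9.74 in Dmdmdx (adjusted p = 7.3e-12). C57Bl/6 replicate 4 was the highest control for both, and Dmdmdx replicate 5 was the lowest mutant for Gpnmb. Akr1e1, an aldo-keto reductase, measured 5.25, 4.90, 4.79, 4.88 and 5.25 in C57Bl/6 and 7.91, 8.2, 8.09, 8.34 and 7.53 in Dmdmdx, at 3.00 ± 0.43 (adjusted p = 2.9e-07). Prg4, lubricin, which coats joints and tendons, measured 9.17, 9.56, 9.97, 9.41 and 8.95 in C57Bl/6 and 12.36, 12.04, 11.77, 11.84 and 12.56 in Dmdmdx, at 2.70 ± 0.24 (adjusted p = 3.8e-12). Here Dmdmdx replicate 5 was the highest array.

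The 15 largest falls with no overlap were Ostn, Pttg1, Nos1, Lrrc52, Mstn, Hs3st5, Gdap1, Bdh1, Padi2, Ppp1r1a, Mylk4, St8sia5, Ldhb, Hspa1l and Pcp4l1. Ostn, osteocrin, a peptide released by muscle and bone that spares natriuretic peptides from clearance, measured 9.15, 9.36, 9.10, 8.92 and 9.93 in C57Bl/6 and 7.41, 6.66, 7.42, 7.24 and 6.63 in Dmdmdx, a 4.66-fold fall (adjusted p = 5.4e-09). Pttg1, securin, which keeps sister chromatids from separating before anaphase, measured 9.76, 9.76, 9.54, 9.77 and 9.67 in C57Bl/6 and 7.74, 7.95, 7.75, 7.69 and 8.86 in Dmdmdx (adjusted p = 1.5e-13). Mstn, myostatin, the secreted brake on muscle growth, measured 10.70, 11.02, 10.12, 10.14 and 10.84 in C57Bl/6 and 9.10, 9.08, 9.17, 9.39 and 7.71 in Dmdmdx (adjusted p = 1.5e-05). Dmdmdx replicate 5 was the lowest array for Mstn and the highest of the Dmdmdx arrays for Pttg1, at 8.86. Bdh1, an enzyme of ketone body use, measured 9.34, 9.02, 9.33, 9.61 and 8.65 in C57Bl/6 and 8.10, 7.42, 7.44, 7.75 and 7.60 in Dmdmdx, and replicate 5 did not stand apart there. The fall of Mylk4, a myosin light chain kinase, of -1.45 lost its call on the 5 unmarked arrays (-1.02, adjusted p = 0.16).

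**Figure D3:**
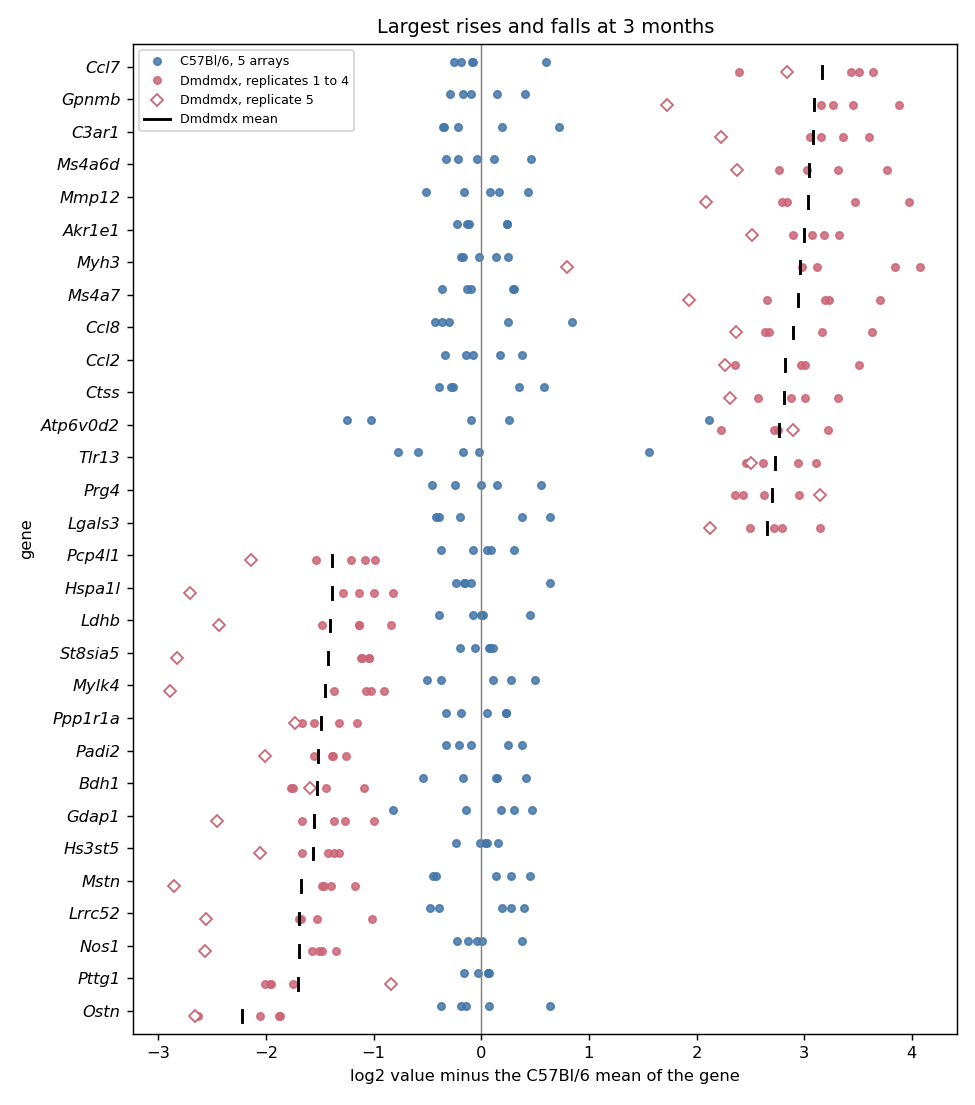
Called genes with groups that do not overlap, the 15 with the greatest rise and the 15 with the greatest fall (vertical axis), each array as its log2 value minus the gene's C57Bl/6 mean (horizontal axis), C57Bl/6 in blue, Dmdmdx replicates 1 to 4 in red, replicate 5 as an open diamond and the Dmdmdx mean as a bar. The rises reach 3.17 and the falls -2.22. Replicate 5 is the lowest Dmdmdx array for all the rises shown except Ccl7, Atp6v0d2, Tlr13 and Prg4, and for all the falls shown except Pttg1 and Bdh1.

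Chemokines are secreted proteins that call white cells out of the blood. Of 25 measured chemokine genes 12 rose and none fell, with a median difference of 0.54, and of 14 receptors 7 rose and none fell. Without Dmdmdx replicate 5, 11 of the chemokines and 4 of the receptors rose, beside 1941 of all 19938 genes. Ccl8 measured 5.85, 6.46, 7.06, 5.92 and 5.79 in C57Bl/6 and 8.89, 9.85, 8.85, 9.38 and 8.58 in Dmdmdx, and Ccl2 measured 7.05, 7.56, 7.25, 7.77 and 7.31 and 10.36, 10.90, 9.75, 10.40 and 9.65. Both attract monocytes through Ccr2 and related receptors, and neither had overlapping groups. Ccr2 itself rose by 2.23 ± 0.33 (adjusted p = 5.2e-07), from a mean of 7.58 ± 0.58 to 9.82 ± 0.18 (SD, n = 5 each). Cx3cr1, the fractalkine receptor of patrolling monocytes, rose by 1.15, and its ligand Cx3cl1 was at -0.02 (adjusted p = 0.92). Neutrophil attractants did not pass: Cxcl1 was at -0.07, Cxcl2 at 0.32 and Cxcl5 at -0.04. Ccl3 rose by 2.56, Ccl6 by 2.19, Ccl9 by 1.93 and Cxcl16, a scavenger receptor and chemokine, by 1.70.

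Ccl2, Ccl7 and Ccl8 lie within one cluster on chromosome 11, where Ccl11, Ccl12 and Ccl1 are their neighbours (chr11:82035577-82179812 in GRCm38.p6 from the start of Ccl2 to the end of Ccl1). The genes of the cluster differed in size of response. In order along the chromosome the differences were 2.83 for Ccl2, 3.17 for Ccl7, -0.28 for Ccl11 (adjusted p = 0.19), 0.37 for Ccl12 (adjusted p = 0.049), 2.89 for Ccl8 and 0.04 for Ccl1 (adjusted p = 0.79). Ccl11, eotaxin, which attracts eosinophils, thus did not pass the test although Ccl7 beside it rose strongly, and Ccl12 on its other side rose by only 0.37.

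Macrophages clear dead fibres and direct repair. Of 33 measured markers 31 rose and none fell, at a median difference of 1.79, and 30 rose on the 5 unmarked arrays with a median of 1.99. The mean over the list was 7.86 to 8.84 in the C57Bl/6 arrays and 9.74 to 10.31 in the Dmdmdx arrays, with the highest control in the marrow-marked replicate 3. C3ar1, the receptor for the complement peptide C3a, measured 7.99, 8.53, 8.13, 9.06 and 8.0 in C57Bl/6 and 11.50, 11.94, 11.40, 11.70 and 10.57 in Dmdmdx. Ms4a7, a tetraspan protein of macrophages, measured 6.48, 6.44, 6.87, 6.88 and 6.21 in C57Bl/6 and 9.23, 10.28, 9.77, 9.81 and 8.51 in Dmdmdx. The lowest Dmdmdx array was replicate 5 for both genes, still above every control. Adgre1, an adhesion receptor used to identify mouse macrophages, rose by 2.30, Cd68, a lysosomal membrane protein, by 2.47, Csf1r, the receptor for the macrophage growth factor, by 1.42, and Mrc1, the mannose receptor, by 1.54. The exceptions were Lyve1 (0.36) and Cd163 (0.30), with adjusted p of 0.29 and 0.27.

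The Ms4a genes, which encode membrane proteins of white cells, are also clustered, on chromosome 19 (chr19:11321039-11604804 in GRCm38.p6). Of the 8 measured genes from Ms4a7 to Ms4a6d, 7 rose, from 0.49 for Ms4a4d to 3.05 for Ms4a6d. Ms4a4b, which T cells express, was at 0.62 with an adjusted p of 0.41.

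Genes of engulfment, lysosomes and lipid handling rose with them, 17 of 19 and none fell, at a median of 0.87. Lgals3, galectin-3, a sugar-binding protein of activated macrophages, measured 8.64, 8.44, 9.47, 9.21 and 8.42 in C57Bl/6 and 11.33, 11.98, 11.56, 11.63 and 10.96 in Dmdmdx. Atp6v0d2, a subunit of the proton pump of macrophages and osteoclasts, measured 7.26, 5.76, 9.12, 6.91 and 5.98 in C57Bl/6 and 9.23, 10.23, 9.73, 9.76 and 9.90 in Dmdmdx. The marrow-marked C57Bl/6 replicate 3 was its highest control, just below the lowest Dmdmdx array. Lipa, lysosomal acid lipase, rose by 1.80, the cholesterol exporters Abcg1 and Abca1 by 1.40 and 0.87, and Apoe, apolipoprotein E, by 1.39.

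Complement is a cascade of plasma proteins that tags debris for uptake. Of 17 measured genes 11 rose and 1 fell. The 3 chains of C1q, the recognition molecule, rose by 1.55 (C1qa), 1.95 (C1qb) and 1.75 (C1qc), and C5ar1, the C5a receptor, by 1.46. The fall was that of Cd59a, the membrane inhibitor of the terminal complex, at -0.62, and it was -0.23 on the 5 unmarked arrays (adjusted p = 0.56). Of 7 MHC class II genes, which present antigen to helper T cells, 6 rose, led by H2-Aa at 1.62 and H2-Ab1 at 1.57. H2-Ea stood at 0.03, with values of 5.97, 6.31, 5.89, 5.89 and 6.00 in C57Bl/6 and 6.35, 5.85, 5.90, 6.02 and 6.08 in Dmdmdx. Of 8 genes of MHC class I assembly 5 rose, by at most 0.74 (Psmb8, an immunoproteasome subunit). Of these 8, 2 rose without Dmdmdx replicate 5, beside 1941 of all 19938 genes.

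Lymphocyte markers did not follow, and a smaller share of them rose than the 12.3% of all genes. None of 10 B cell and 8 NK cell genes passed, and of 10 T cell genes 1 did, Il7r, the interleukin-7 receptor, at 2.33 ± 0.45 (adjusted p = 6e-05). Il7r measured 6.74, 6.42, 8.77, 7.00 and 6.12 in C57Bl/6 and 8.90, 9.65, 8.93, 9.31 and 9.92 in Dmdmdx with no overlap, whereas Cd3e, part of the T cell receptor complex, was at 0.20. Of 7 dendritic cell genes 2 rose and 1 fell, with Itgax, CD11c, at 1.76 and Cd209a at 0.96. Of 7 mast cell genes Cpa3, a carboxypeptidase, rose by 0.90, and it did not pass on the 5 unmarked arrays (0.97, adjusted p = 0.077) or without C57Bl/6 replicate 1 (0.60, adjusted p = 0.13). Of 4 eosinophil genes Siglecf rose by 0.32, and without Dmdmdx replicate 5 it was at 0.20 (adjusted p = 0.13). None of the 12 marrow, 6 red cell, 8 bone or 6 skin genes passed with all arrays. Among the 5 unmarked arrays, 5 of the marrow and 4 of the red cell genes fell, beside 7.99% of all genes.

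Interferons are cytokines of antiviral defence, and many of their target genes share a promoter element. All 8 measured sensors and factors and 20 of 25 effectors rose, and none fell, with medians of 0.73 and 0.78. Irf7, the factor that amplifies the response, rose by 1.33 ± 0.32 (adjusted p = 0.0011), Oasl2, an oligoadenylate synthetase relative, by 1.40, Rtp4 by 1.37, Trim30a, a ubiquitin ligase, by 1.37 and Ifit3, which binds viral RNA, by 1.16. Ifit3 measured 8.08, 8.49, 8.41, 8.18 and 8.12 in C57Bl/6 and 9.27, 9.91, 9.34, 9.19 and 9.35 in Dmdmdx. Dmdmdx replicates 2 and 5 were the highest in the mean over the effectors, 8.84 and 9.08 against 8.39 to 8.49 in the other Dmdmdx arrays and at most 8.16 in C57Bl/6. Fewer of these calls held with fewer arrays: 5 of the 8 and 8 of the 25 on the 5 unmarked arrays, beside 7.8% of all genes. The medians there were 0.76 and 0.75. Irf7 and Ifit3 were among those lost, at 1.22 (adjusted p = 0.076) and 1.34 (adjusted p = 0.061).

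The promoters of these genes were searched for the interferon element, GAAA, any 2 bases and GAAA again, on either strand (as TTTC on the other), in the 300 bases from 250 before to 50 after each RefSeq start (GRCm38.p6). A promoter was given for 15614 of the 19938 genes. The element occurred in at least 1 promoter of 3 of 6 sensors and factors (50%), of 10 of 18 effectors (55.6%) and of 3.89% of all genes, and in 5.83% of the genes that rose and 2.59% of those that fell. Gbp3 and Rsad2 carry it and did not pass (0.34 and 0.78). Of 6 MHC class I genes with a promoter 1 had it, B2m. The 4 examples from genes that rose are shown on the strand of the gene with the element in capitals, at chr19:34583382-34583441 (Ifit3), chr19:34640760-34640819 (Ifit1), chr10:128270251-128270310 (Stat2) and chr2:122147523-122147582 (B2m, the shared light chain of MHC class I, which rose by 0.47).
Ifit3: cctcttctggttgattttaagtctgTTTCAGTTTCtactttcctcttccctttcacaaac
Ifit1: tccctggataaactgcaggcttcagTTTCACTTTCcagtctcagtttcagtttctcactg
Stat2: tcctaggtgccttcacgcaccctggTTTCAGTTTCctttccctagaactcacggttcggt
B2m: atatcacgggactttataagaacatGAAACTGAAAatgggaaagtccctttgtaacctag
A match is a description of these letters and not evidence of binding. The same search for GAGGAAGT, a form of the site of PU.1, the factor encoded by Spi1 that directs macrophage genes, found it in 12.5% of the genes that rose at least 2-fold, 2.47% of those that fell and 3.24% of all genes. It was in none of the 23 macrophage markers and none of the 16 engulfment, lysosome and lipid genes with a promoter. Of 10 largest rises with a promoter 2 had it, Ctss (2.81) and Mmp12 (3.04). Of 10 complement genes 1 had it, C1qc, and of 17 chemokine genes 1, Pf4, platelet factor 4 (1.39). Spi1 itself rose by 1.65 ± 0.29. The windows, at chr3:95526759-95526816 (Ctss), chr9:7344284-7344341 (Mmp12) and chr4:136893077-136893134 (C1qc), read as follows with the match, on the other strand in all 3, in capitals.
Ctss: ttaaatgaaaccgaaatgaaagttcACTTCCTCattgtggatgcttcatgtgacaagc
Mmp12: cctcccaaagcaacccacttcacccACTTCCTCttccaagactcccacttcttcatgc
C1qc: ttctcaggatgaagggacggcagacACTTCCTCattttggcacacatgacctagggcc

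The matrix around the fibres changed towards higher levels. Of 17 interstitial collagen chains 9 rose, of 29 glycoproteins and proteoglycans 15, and of 18 genes of collagen processing 13, against 1 fall in all, P4ha2 (-0.28, and -0.18 with an adjusted p of 0.35 on the 5 unmarked arrays), a prolyl hydroxylase subunit. Over the 64 genes the median difference was 0.42, with all arrays and on the 5 unmarked arrays. Col3a1, a chain of the fine fibrils of reticular tissue, rose by 0.93 ± 0.17 (adjusted p = 2.7e-05), from 10.11, 9.99, 9.58, 10.13 and 9.85 in C57Bl/6 to 10.88, 11.06, 11.07, 10.97 and 10.31 in Dmdmdx with no overlap. Col1a1, a chain of the main fibrillar collagen, did not pass at 0.56 ± 0.23 (adjusted p = 0.054). Lox, lysyl oxidase, which crosslinks collagen, measured 8.69, 8.31, 9.27, 9.23 and 8.74 in C57Bl/6 and 10.36, 10.40, 10.09, 10.49 and 10.36 in Dmdmdx and rose by 1.49 (adjusted p = 1.2e-10). Postn, periostin, was at 1.95, Fn1, fibronectin, at 1.04, and Vcan, versican, a proteoglycan of provisional matrix, at 1.03, all 3 past the test. Tnc, tenascin-C, was at 1.10 and past the test with all arrays, and without Dmdmdx replicate 5 it was at 0.82 with an adjusted p of 0.086. Of 21 basement membrane and integrin genes, which anchor the fibre to laminin, 5 rose and 3 fell, beside 12.3% and 15.8% of all genes. On the 5 unmarked arrays 4 rose and none fell, beside 7.8% and 7.99% of all genes.

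Enzymes that cut matrix rose as well. Of 23 proteases 16 rose and 1 fell, at a median of 0.75. Mmp12, macrophage elastase, measured 6.58, 6.50, 5.90, 6.85 and 6.26 in C57Bl/6 and 9.21, 10.39, 9.26, 9.89 and 8.51 in Dmdmdx. Ctss, cathepsin S, measured 7.81, 7.70, 8.67, 8.44 and 7.83 in C57Bl/6 and 10.66, 11.40, 10.97, 11.10 and 10.40 in Dmdmdx. Neither gene's groups overlapped, and their adjusted p were 2.8e-09 and 1.4e-10. Mmp3 rose by 1.99, Adam8 by 1.93 and Mmp14, a membrane collagenase, by 1.00, whereas the neutrophil proteases Mmp8 (0.56) and Mmp9 (0.22) did not pass. The protease that fell was Adamts1 (-0.73). Of 10 inhibitors 5 rose and 2 fell. Timp1 rose by 2.46, from 7.32, 7.63, 8.19, 8.08 and 7.26 to 10.17, 10.63, 9.97, 10.30 and 9.72, and Serpina3n by 2.52. Timp3 fell, at -0.57, and Timp4, a form found in muscle and heart, at -1.05, but Timp4 was at -0.46 on the 5 unmarked arrays (adjusted p = 0.54).

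Among the ligands of the transforming growth factor beta family 1 of 11 rose and 4 fell, beside 12.3% and 15.8% of all genes. Tgfb1, the fibrogenic ligand, rose by 1.08 ± 0.20 (adjusted p = 2.8e-05), from 8.61, 8.48, 9.45, 9.16 and 8.77 to 9.54, 9.99, 10.05, 9.77 and 10.51. Besides Mstn the falls were Bmp6 (-0.81), Tgfb2 (-0.55) and Bmp4 (-0.45), with Tgfb2 at -0.36 without Dmdmdx replicate 5 and Bmp4 at -0.35 on the 5 unmarked arrays (adjusted p = 0.29). Of 15 receptors and effectors 2 rose, Tgfbr2 (0.43) and Tgfbr1 (0.40), the receptors for Tgfb1, and 6 fell, among them the activin and myostatin receptors Acvr2b (-0.40), Acvr2a (-0.34) and Acvr1b (-0.58). Tgfbr1, Acvr2b and Acvr2a did not pass on the 5 unmarked arrays, at 0.37, -0.26 and -0.28 (adjusted p = 0.098, 0.11 and 0.15), and 3 of the list fell there. Of 11 inhibitors 1 rose, Skil at 0.23, which did not pass without Dmdmdx replicate 5 (0.17, adjusted p = 0.22). The falls were 3, with Smad6, an intracellular inhibitor, at -0.38.

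Genes of newly formed fibres went both ways. Myh3, the embryonic myosin heavy chain, measured 7.09, 6.67, 6.82, 6.98 and 6.66 in C57Bl/6 and 9.82, 10.69, 10.92, 9.96 and 7.64 in Dmdmdx. Dmdmdx replicate 5 lay well below the other 4 and above the highest control. Of 16 regenerating fibre genes 6 rose, 5 fell and 5 did not pass. With Myh3 (2.96) rose Tnnt2, cardiac troponin T, which developing fibres use (2.40), Myl4, embryonic light chain (2.04), Ankrd1 (1.92), Myh8, perinatal myosin (0.82, and 0.80 with an adjusted p of 0.068 on the 5 unmarked arrays), and Actc1, cardiac actin (0.57). The 5 falls, which include Ankrd2 (-1.11) and Csrp3 (-0.95), proteins of the stretched sarcomere, were reduced to 1 on the 5 unmarked arrays and to 1 without Dmdmdx replicate 5.

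Mymk, myomaker, which fuses myoblasts, measured 7.40, 7.76, 7.08, 7.65 and 7.43 in C57Bl/6 and 10.03, 10.62, 10.71, 9.67 and 7.72 in Dmdmdx. Dmdmdx replicate 5 fell within the range of the controls and the other 4 lay above it, at a difference of 2.29 ± 0.33 (adjusted p = 4e-07). Myog, myogenin, the factor of terminal differentiation, rose by 1.40 ± 0.27. Of 21 satellite cell and myoblast genes 6 rose and 3 fell. Pax7, the factor that marks satellite cells, was at 0.15 ± 0.11 (adjusted p = 0.35), Myf5 at 0.32 and Myod1 at 0.15, none past the test. Ncam1, an adhesion molecule of new and denervated fibres, rose by 1.42. At the synapse Chrng, the fetal subunit of the acetylcholine receptor, rose by 1.68 and Chrna1 by 1.29. Chrne, the adult subunit, was at -0.57, past the test with all arrays and not without Dmdmdx replicate 5 (-0.30, adjusted p = 0.30). Of 12 synaptic genes 3 rose and 2 fell. The falls in this list and in the satellite cell list were near the 15.8% of all genes that fell, and 12.3% of all genes rose.

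Imprinted genes of growth, read from the copy of a single parent, rose in 6 of 10 cases and never fell. Igf2, insulin-like growth factor 2, measured 9.47, 10.05, 9.03, 9.22 and 9.70 in C57Bl/6 and 11.43, 11.57, 11.76, 11.43 and 10 in Dmdmdx, with replicate 5 alone within the range of the controls. Mest rose by 1.83, Peg3 by 1.45 and Peg10 by 1.02, while Dlk1 (-0.06) and the maternal RNA Meg3 (-0.15) did not pass.

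Cell cycle genes were called in 22 of 33 cases as risen and 1 as fallen (Pttg1), at a median of 0.91, and this count rests on few arrays. The mean over the list was 7.18 to 8.90 in C57Bl/6 and 7.84 to 9.91 in Dmdmdx, and C57Bl/6 replicate 3 lay above Dmdmdx replicates 1 to 4. Without Dmdmdx replicate 5, 3 genes rose, beside 1941 of all 19938, and without all high-Xist arrays none did, beside 1457. On the 5 unmarked arrays 11 rose at a median of 0.83, beside 7.8% of all genes. Ccna2, cyclin A2, was at 1.61 with all arrays and at 1.23 without replicate 5 (adjusted p = 0.097). The part of marrow cells in these values was not tested.

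Genes of the contractile apparatus fell in part, and Dmdmdx replicate 5 carried many of these calls. Of 17 fast fibre genes 8 fell and none rose, of 13 slow fibre genes 3 fell and 1 rose, and of 22 genes of excitation-contraction coupling, which turns the nerve impulse into calcium release, 12 fell. Without replicate 5 the falls were 2, 0 and 7, beside 2274 of all 19938 genes. Myh2, the myosin of fast oxidative fibres, measured 12.72, 12.31, 12.82, 13.13 and 12.69 in C57Bl/6 and 12.21, 11.72, 11.78, 12.19 and 10.17 in Dmdmdx, with no overlap (-1.12 ± 0.21, adjusted p = 3.7e-05; -0.76 on the 5 unmarked arrays). Myh4, the myosin of the fastest fibres, was at -0.21 and did not pass. In the coupling list Kcnj2, an inward rectifier potassium channel, fell at -1.10, Stac3, a partner of the voltage sensor, at -0.84 and Stim1, the calcium sensor of the reticulum, at -0.55. These 3 calls held on the 5 unmarked arrays, at -0.94, -0.64 and -0.46, whereas Ryr1, the calcium release channel, was at -0.53 with all arrays and -0.23 on those 5 (adjusted p = 0.36).

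Genes of energy metabolism fell in Dmdmdx. Of 77 measured subunits of the respiratory complexes and ATP synthase 57 fell and 3 rose, of 26 genes of the tricarboxylic acid cycle 25 fell, of 30 of fatty acid oxidation 28 fell, and of 21 of glycolysis and glycogen 15 fell, against 15.8% of all genes. The changes were small: the medians were -0.39, -0.47, -0.56 and -0.61. On the 5 unmarked arrays 17, 13, 17 and 7 genes fell, at medians of -0.25, -0.36, -0.40 and -0.32, beside 7.99% of all genes. The mean over the 35 complex I genes was 11.08 to 11.25 in C57Bl/6, 10.83 to 10.94 in Dmdmdx replicates 1 to 4 and 10.14 in replicate 5, so the groups did not overlap with or without that array. Without it, 15 complex I genes fell rather than 27, and 8 genes of glycolysis and glycogen rather than 15. Of all 19938 genes 2274 fell in that fit, rather than 3149.

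Ucp3, a mitochondrial carrier of muscle that responds to fatty acids, measured 9.88, 10.18, 10.28, 9.28 and 10.09 in C57Bl/6 and 8.59, 8.89, 8.63, 8.98 and 7.68 in Dmdmdx. The groups did not overlap, and the difference was -1.39 ± 0.25 (adjusted p = 2e-05). Acadvl, which starts the oxidation of very long fatty acids, fell at -0.91 (adjusted p = 3.4e-09; -0.78 on the 5 unmarked arrays), and Ppara, the nuclear receptor that drives these genes, at -1.07. Ppargc1a, the coactivator of mitochondrial genes, was at -0.97, and without Dmdmdx replicate 5 at -0.49 (adjusted p = 0.25). The coactivator's partner Esrra fell at -0.58 and held on the 5 unmarked arrays (-0.52). For sugar, Slc2a4, the insulin-regulated glucose transporter, fell at -1.14, Hk2, hexokinase 2, at -1.10 and Gys1, glycogen synthase, at -0.77, while Ldha was at -0.05 and did not pass. Slc2a4 measured 11.87, 12.09, 11.83, 12.06 and 12.07 in C57Bl/6 and 11.14, 11.02, 11.14, 11.18 and 9.71 in Dmdmdx. The 3 respiratory genes that rose were Cox6a1 (0.55) and Cox8a (0.37), the non-muscle forms of cytochrome oxidase subunits, and Atpif1 (0.64), the inhibitor of ATP synthase, whereas the muscle forms Cox6a2, Cox7a1 and Cox8b were at -0.71, -0.63 and -0.48. Cox6a1, Cox6a2, Cox7a1 and Cox8b did not pass on the 5 unmarked arrays, at 0.41, -0.43, -0.39 and -0.28, with adjusted p of 0.058, 0.056, 0.12 and 0.11. Without Dmdmdx replicate 5, Cox6a2 was at -0.44 and Cox7a1 at -0.33, with adjusted p of 0.0042 and 0.20.

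**Figure D4:**
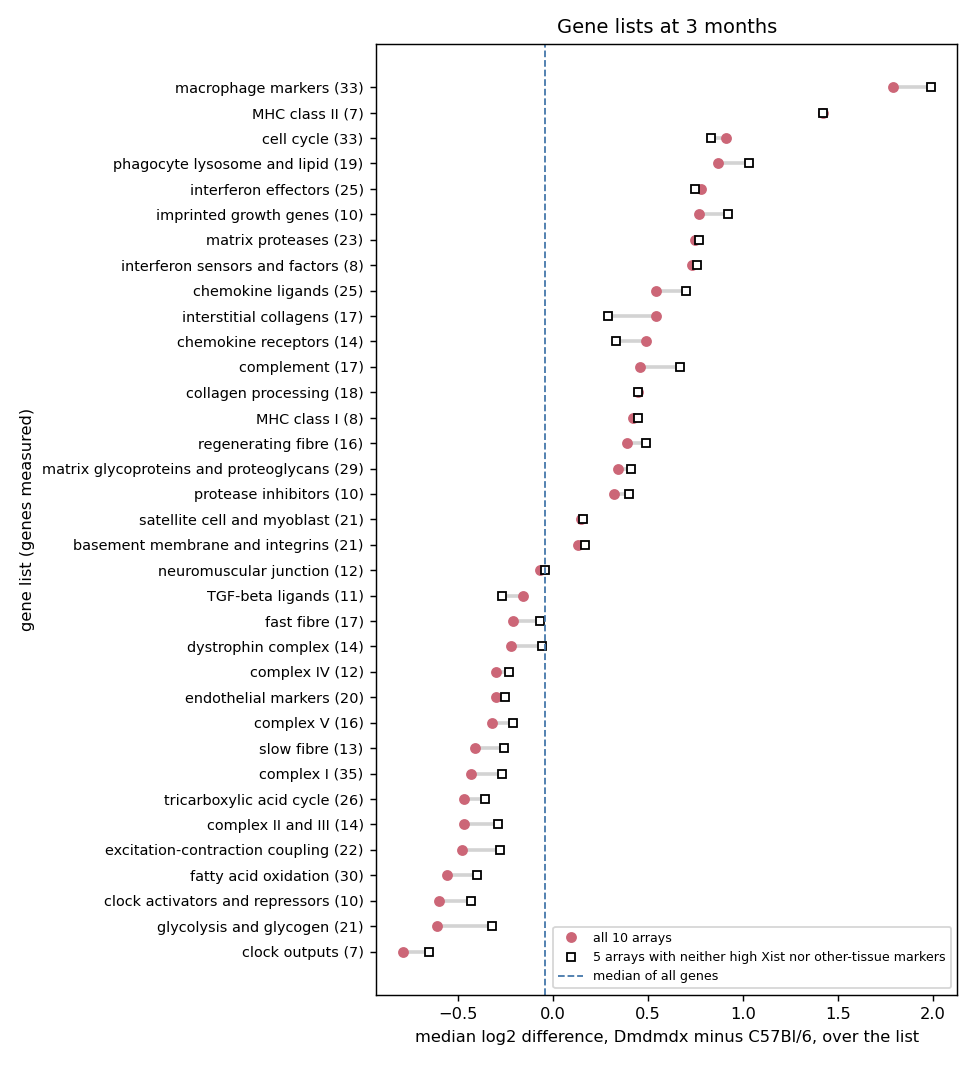
Median log2 difference (horizontal axis) over 35 gene lists (vertical axis, genes measured in brackets), with all 10 arrays as red circles and with the 5 unmarked arrays as open squares, and the median of all genes, -0.04, as a dashed line. Macrophage markers (1.79 and 1.99) lie furthest to the right, clock outputs and glycolysis furthest to the left, and the lists of muscle metabolism lie nearer to 0 on the 5 unmarked arrays.

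The circadian clock is a loop in which Clock and Arntl switch on their own repressors and a set of output genes through the E-box, CACGTG. Of 10 clock genes 7 fell and of 7 outputs 6 fell, with no rise, at medians of -0.60 and -0.79. The activators did not pass, with Clock at 0.08 and Arntl at -0.05. Cry2, a repressor, fell at -0.80, Nr1d1 at -0.69 (with high-Xist arrays left out, -0.50 and adjusted p = 0.053) and Hlf, an output factor, at -1.16. Hlf measured 7.90, 8.68, 8.32, 8.0 and 8.10 in C57Bl/6 and 6.97, 7.10, 7.10, 6.99 and 7.04 in Dmdmdx. On the 5 unmarked arrays 2 of each list fell, beside 7.99% of all genes. The time of day at which mice were killed is not given in the labels, so lineage and time cannot be told apart here. The E-box was found in a promoter of 2 of 9 clock genes and 3 of 6 outputs, against 9.5% of all genes, 10.6% of those that fell and 11.6% of those that rose. Windows of 2 outputs, at chr3:95882314-95882369 (Ciart, -1.18) and chr6:145865543-145865598 (Bhlhe41, -1.02), are given with the E-box in capitals. Ciart did not pass on the 5 unmarked arrays (-0.88, adjusted p = 0.25).
Ciart: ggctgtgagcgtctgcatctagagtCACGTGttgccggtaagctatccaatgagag
Bhlhe41: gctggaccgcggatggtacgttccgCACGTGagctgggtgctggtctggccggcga

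Secreted and stress genes moved both ways. The list counts here stand beside 12.3% of all genes that rose and 15.8% that fell. Besides Ostn, the angiogenic factors Vegfa and Vegfb fell, at -0.89 ± 0.11 and -0.75 ± 0.14, and of 20 endothelial markers 11 fell and none rose. Flt1 and Kdr, receptors for Vegfa, were at -0.65 and -0.47. On the 5 unmarked arrays 7 of the 20 fell, beside 7.99% of all genes, Kdr not among them (-0.57, adjusted p = 0.14). Pecam1 (-0.13) and Cdh5 (-0.28), adhesion molecules found on all endothelium, did not pass. Igf1, insulin-like growth factor 1, rose by 0.75 and Metrnl by 0.54. The metallothioneins Mt2 and Mt1, which bind zinc and copper, rose by 2.0 and 1.16, and Runx1, a factor raised in denervated muscle, by 1.46. The ubiquitin ligases of atrophy, Fbxo32 and Trim63, were at -0.95 and -0.85 and did not pass (adjusted p = 0.089 and 0.091), although their arrays did not overlap between the groups. In polyamine metabolism Sat1, which acetylates spermidine for export, rose by 1.29 and Smox, spermine oxidase, fell at -1.12. Of 19 oxidative stress genes 6 rose, led by Cyba (1.47), a subunit of the phagocyte oxidase, and 2 fell, Nqo1 (-0.86) and Sod2 (-0.49). Of the fibroblast progenitor markers 3 of 12 rose, among them Pdgfra (0.50). Of 9 Schwann cell genes 3 fell and 1 rose, of 11 adipocyte genes 1 each way, and of 8 tendon genes none. Of 14 microRNA genes of muscle and inflammation 1 fell, Mir34c, at -0.25, and on the 5 unmarked arrays it was at -0.11 (adjusted p = 0.62), and without C57Bl/6 replicate 5 at -0.19 (adjusted p = 0.068).

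The values of each age had their own overall level, so the ages were compared only through the difference between Dmdmdx and C57Bl/6 at each. The difference at 3 months departed from that at 21 days in 17 genes, 0.0853% of all genes, and from that at 6 months in 1 gene, 0.00502% (1314 and 1282 genes at an unadjusted p under 0.05). Igf2 was 0.15 ± 0.21 at 21 days, 1.74 ± 0.21 at 3 months and 1.76 ± 0.21 at 6 months (SE, n = 5 and 5 at each age), and the change from 21 days was 1.59 (adjusted p = 0.0076). Bdh1 was 0.00 at 21 days, -1.53 at 3 months and -1.13 at 6 months (change from 21 days -1.53, adjusted p = 0.0028). Hs3st5, a heparan sulfate sulfotransferase, and Slc4a4, a bicarbonate transporter, followed the same course, at -0.30, -1.57 and -1.42 and at -0.05, -1.26 and -0.97. At 21 days Bdh1 averaged 6.36 in both lineages, below that age's array means of 6.78 to 6.81. Whether a fall could be seen from so low a level was not tested. Arg1, arginase 1, an enzyme of repair macrophages, was 2.0 at 21 days and 0.31 at 3 months (change -1.69, adjusted p = 0.041), and Pla2g7, the phospholipase of platelet-activating factor, was 1.12 and -0.17 (adjusted p = 0.0087). The call for Arg1 was lost in most fits that left out 1 array, with the change at -1.74 without 3-month Dmdmdx replicate 1 (adjusted p = 0.055) and -1.67 with the high-Xist arrays left out (adjusted p = 0.20). Creb3l1, Adamts9 and Clic4 were higher relative to the controls at 3 months than at 21 days, by 0.98, 0.78 and 0.45. The call for Creb3l1 was lost in many of the fits that left out 1 array, for example without 3-month Dmdmdx replicate 1 (1.00, adjusted p = 0.055). With the high-Xist arrays left out, neither Creb3l1 (0.93, adjusted p = 0.13) nor Clic4 (0.47, adjusted p = 0.078) passed. In that fit Pla2g7 (-1.17, adjusted p = 0.11), Hs3st5 (-1.17, adjusted p = 0.13) and Slc4a4 (-0.96, adjusted p = 0.07) did not pass either. Slc4a4 was also lost with the other-tissue arrays left out (-0.80, adjusted p = 0.084). Clic4 also lost its call without 3-month C57Bl/6 replicate 2 (0.41, adjusted p = 0.053), and Adamts9 without 3-month Dmdmdx replicate 1 (0.69, adjusted p = 0.055).

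**Figure D5:**
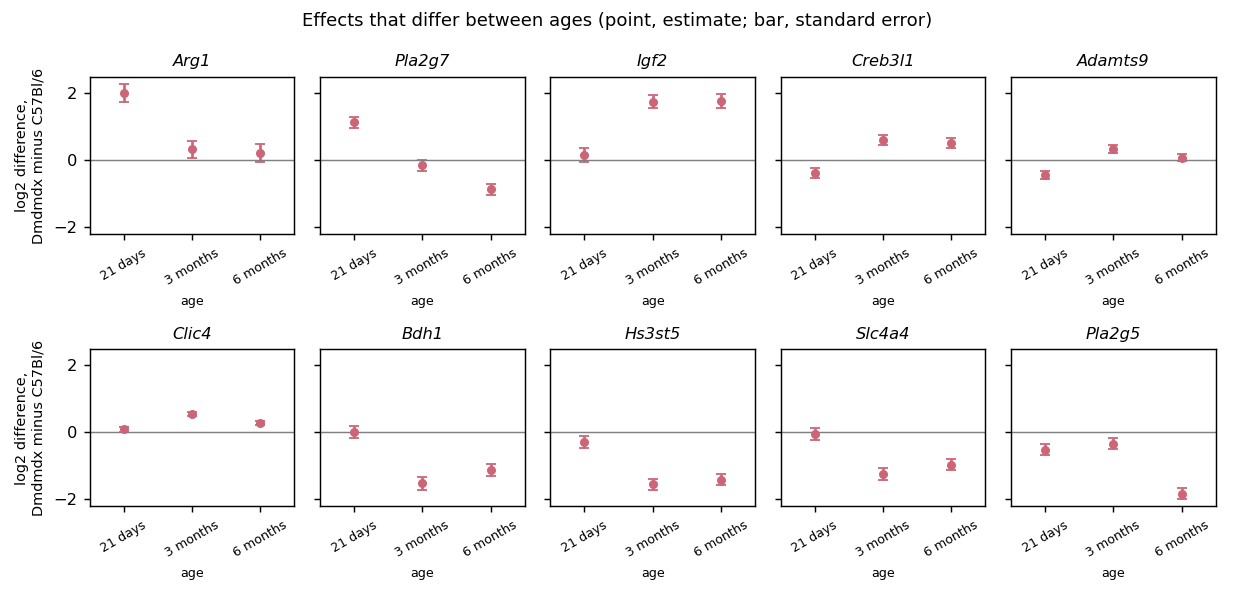
Difference between Dmdmdx and C57Bl/6 in log2 units (vertical axis) at 21 days, 3 months and 6 months (horizontal axis) for the 9 named genes whose difference at 3 months departed from that at 21 days and for Pla2g5, with the standard error as a bar. Arg1 and Pla2g7 are highest at 21 days, Igf2 from 3 months, Bdh1, Hs3st5 and Slc4a4 are lower from 3 months, and Pla2g5 is lowest at 6 months.

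The gene whose difference departed from that at 6 months was Pla2g5, a secreted phospholipase, at -0.34 ± 0.17 at 3 months and -1.84 ± 0.17 at 6 months (adjusted p = 0.0018). Without the high-Xist arrays that change was 0.63. That fit keeps only replicate 3 of the 6-month C57Bl/6 arrays, itself marked by marrow genes (mean 11.31). The median difference over the macrophage markers was 2.22 at 21 days, 1.79 at 3 months and 1.55 at 6 months. Those of fatty acid oxidation were -0.43, -0.56 and -0.39, and those of clock outputs -0.10, -0.79 and -0.14. No member of these 3 lists had a change of its difference between ages that passed.

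Set directly against Largemyd at 3 months, 205 genes were higher in Dmdmdx (1.03%) and 640 lower (3.21%). The largest gaps among the named genes were H2-Ea, a class II chain, at -5.91, Klk1b22, a kallikrein, at -3.42, and Hal, histidine ammonia-lyase, at -3.18. None of these 3 passed between Dmdmdx and C57Bl/6. Hal did not pass against Largemyd with the marked arrays of every group left out (-3.21, adjusted p = 0.099). Pttg1 was lower in Dmdmdx than in Largemyd, at -1.23 (adjusted p = 8.7e-09), as were Ucp3 at -1.14 (adjusted p = 0.004) and Dmd at -1.08 (adjusted p = 8.5e-05). Ucp3 did not pass with the high-Xist arrays left out (-0.99, adjusted p = 0.064) or the other-tissue arrays left out (-0.87, adjusted p = 0.11). Prg4 was higher, at 1.30 (adjusted p = 0.00048), as was Cyp4f18, a leukotriene hydroxylase of white cells, at 2.15 (adjusted p = 0.00018). Chil3, Ly6a2, Ppbp and Ear6, genes of marrow and white cells, were called higher in Dmdmdx by 2.15 to 3.12. Without Dmdmdx replicate 5 the differences were 2.43, 2.30, 2.05 and 1.30, and none of the 4 passed (adjusted p = 0.18, 0.29, 0.31 and 0.36). That array was the highest in marrow genes, and their part in these differences was not tested. Other genes with large differences from C57Bl/6 did not pass against Largemyd, with Gpnmb at -0.31 (adjusted p = 0.55), Myh3 at -0.02 (0.98), Akr1e1 at 0.02 (0.99) and Nos1, among the falls, at 0.01 (0.99). Of 25 interferon effectors 6 were higher in Dmdmdx than in Largemyd and none lower, and of 30 fatty acid oxidation genes 13 were lower and none higher. With the marked arrays of every group left out, which leaves Dmdmdx replicates 1 and 2 in this contrast, 108 genes were called in all. The count was 227 without Dmdmdx replicate 5, 1394 without Dmdmdx replicate 1, and 437 and 554 without Largemyd replicates 1 and 3.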

How the data were processed

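Whole calf muscles were powdered, total RNA was biotin labelled and hybridised to Affymetrix Mouse Gene 1.0 ST arrays, per the labels' protocols. The deposited values are log2 expression values from RMA in Affymetrix Expression Console, per the submitters' processing notes (software version not given in the sources used). Mean array values lay between 6.78 and 6.81 (21 days), 7.19 and 7.27 (3 months) and 7.32 and 7.37 (6 months), so levels were not compared between ages. Of 35556 probe sets, 21789 have 1 gene symbol, 1621 have several and were not named, and 12146 have none in the annotation used. Each of the 19938 genes was read by the probe set with the highest mean over the 60 arrays. Array data carry no read depth, and the number of arrays limits the precision. Replicates were numbered in accession order, and p-values measure the spread between the 5 animals of a group.

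A linear model of 12 group means was fitted to all 60 arrays (limma 3.58.1, R 4.3.3, 48 residual degrees of freedom), with moderated statistics and Benjamini-Hochberg adjustment over all genes in each contrast. The fit was tested on simulated data. A call is an adjusted p under 0.05. The differences between ages and the Dmdmdx to Largemyd difference are contrasts of the same fit.

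The comparison and its 57 gene lists were chosen with earlier results of these data known. Named genes are the 15 largest rises and falls with groups that do not overlap, the dystrophin complex, the 4 largest called members of each list (any member of lists of at most 15), and the 5 largest called differences per direction in each other contrast. Every other list member named in the text was chosen after its values were seen. Alternatives were the 10 or 20 arrays alone, array medians subtracted, array weights, robust variance, the mean of all probe sets, a filter on the lowest 30% of genes, covariates, a threshold of 0.01, single arrays left out, arrays with Xist over 8 left out, and arrays with a tissue marker mean exceeding the age's median by over 2 log2 units left out. Leaving out both kinds of arrays at once, in every group of the fit, was added after the data were seen. Promoters are those of RefSeq on GRCm38.p6.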

Additional observations from a re-analysis of the deposited data

Results flagged for a closer look

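In 118 tests of whether 1 of 5 arrays stands apart from the other 4, each on a list mean or a gene, 25 found such an array. For independent, normally distributed values chance gives about 1 in 20. These tests share the same 10 arrays and include genes chosen from these data for large changes, so that share is no yardstick for the 25. The means of the marker lists set C57Bl/6 replicate 3 apart for marrow and neutrophil (11.28), red cell precursor (10.13), B cell (7.91), T cell (7.44), eosinophil (7.69), Schwann cell (7.53) and NK cell genes (6.20), and Dmdmdx replicate 5 for B cell (9.82), T cell (8.41) and mast cell genes (7.90). Dmdmdx replicate 5 was also apart in 13 genes. It was the lowest Dmdmdx array for Dmd (7.41), Nos1 (7.44), Mstn (7.71), Mylk4 (9.80), St8sia5 (7.46), Hspa1l (7.5), Dag1 (10.45), Sgca (9.90), Sgcb (9.73), Sgcd (8.81), Sspn (8.46) and Dtna (8.92), and the highest for Pttg1 (8.86). C57Bl/6 replicate 4 was apart for Ccl7 (7.54) and Hspa1l (10.85). The part of other tissue in the values of these arrays was not tested.

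The difference between Dmdmdx and C57Bl/6 changed from 21 days to 3 months, by the limma contrast of the differences, in Igf2 by 1.59 (adjusted p = 0.0076), Creb3l1 by 0.98 (0.036), Adamts9 by 0.78 (0.013) and Clic4 by 0.45 (0.012). It changed the other way in Arg1 by -1.69 (adjusted p = 0.041), Bdh1 by -1.53 (0.0028), Pla2g7 by -1.29 (0.0087), Hs3st5 by -1.27 (0.011) and Slc4a4 by -1.21 (0.016). Between 3 and 6 months it differed in Pla2g5, by 1.5 (adjusted p = 0.0018). With the high-Xist arrays left out, the changes from 21 days of Creb3l1, Clic4, Arg1, Pla2g7, Hs3st5 and Slc4a4 were not called.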

How the results depend on the processing

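Of 195 called genes followed by name, 121 kept their call under every alternative run and 157 in all 10 fits that left out 1 of the 10 arrays. None reversed. Utrn, which was not called, ranged from -0.04 to 0.022 with 1 array left out, and its sign turned without Dmdmdx replicate 1 (0.004), Dmdmdx replicate 2 (0.01) or C57Bl/6 replicate 1 (0.022). Leaving out Dmdmdx replicate 5 ended 34 calls, the high-Xist arrays 59, the other-tissue arrays 27 and both 47. The 5606 calls became 3184 with the 10 arrays alone, 3130 without high-Xist arrays and 3149 without both kinds. For the change from 21 days the 17 calls became 200 with array weights, 114 without other-tissue arrays, 117 with covariates and 7 at a threshold of 0.01. For the change to 6 months the 1 call became 23 with array weights, 33 without high-Xist arrays, 2 without other-tissue arrays and 0 with covariates. No fit of that change was possible without both kinds of arrays, since no 6-month C57Bl/6 array remains. Against Largemyd the 845 calls became 471 with the 3-month arrays alone, 1862 with array weights, 127 without high-Xist arrays, 248 without other-tissue arrays, 108 without both, 185 with covariates and 270 at a threshold of 0.01. With 1 array left out at a time the counts ranged from 4215 to 6490 against C57Bl/6, from 11 to 24 for the change from 21 days, from 1 to 2 for the change to 6 months and from 227 to 1394 against Largemyd. The change from 21 days had its lowest count without C57Bl/6 3-month replicate 2, and the change to 6 months had 2 calls without Dmdmdx 3-month replicate 3 or C57Bl/6 6-month replicate 5. The cause of these shifts was not tested. No paired analysis was possible because the replicate numbers of the groups are not shared in the labels.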
